A study of Mus musculus with 17 samples.

Results

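The genes described here are 36 genes of hepatic stellate cells and of the extracellular matrix, chosen by name as a list of collagens, basement membrane components, matrix glycoproteins, crosslinkers, proteases and their inhibitors, and stellate cell markers. All 36 were found among the 23461 genes of the count table, and 30 of them passed the filter on low counts that left 13721 genes for testing. RNA was sequenced from hepatocytes of male mice aged 2 to 3 months, isolated by fluorescence-activated cell sorting, in 17 libraries of 4 groups. The groups were Yap/Taz KO mice given CCl4 (KO CCl4, 3 libraries), untreated Yap/Taz KO mice (KO untreated, 4), wild-type mice given CCl4 (WT CCl4, 5) and untreated wild-type mice (WT untreated, 5). Mice of the CCl4 groups received 7 doses of carbon tetrachloride, a solvent that injures hepatocytes, at 1 ug/g and with 3 days between doses, and their cells were taken 3 days after the last of them. Yap and Taz (gene symbols Yap1 and Wwtr1) are coactivators of transcription at the end of the Hippo pathway. No source used here says how they were deleted, in which cells, or how the sort was gated. Nor does any say whether each library came from its own mouse, so p-values measure the spread between libraries, which may be technical.

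Stellate cells lie between hepatocytes and the sinusoidal endothelium and store vitamin A. After repeated injury they turn into myofibroblasts, which make most of the fibrillar collagen of a scarred liver, crosslink it, and secrete proteases and protease inhibitors that reshape it. Hepatocytes are known as a main source of fibronectin, and sinusoidal endothelial cells make basement membrane components. The libraries were those of a sorted hepatocyte population, so the question the 36 genes answer is how much RNA of this programme each library held. In such bulk libraries, fewer cells of a type and less RNA per cell cannot be told apart.

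Totals ran from 11266420 to 24775863 counts per library, and levels are given in CPM, the field's unit for a gene's count scaled to a common library size. Yap1 lay between 0.536 and 1.97 CPM in KO CCl4 and between 1.21 and 8.04 CPM in KO untreated libraries, against 42.5 to 64.4 CPM in WT CCl4 and 37.4 to 73.6 CPM in WT untreated libraries. Wwtr1 lay between 2.72 and 7.09 CPM in KO CCl4 and between 1.20 and 2.51 CPM in KO untreated libraries, against 15.2 to 23.4 CPM in WT CCl4 and 9.86 to 18.9 CPM in WT untreated libraries. The 16 hepatocyte markers summed to a group mean of 160073 CPM in KO CCl4, 158455 in KO untreated, 145777 in WT CCl4 and 155654 in WT untreated libraries. KO CCl4 replicate 3 stood apart, with 34.3% of its counts on mitochondrially encoded genes, and so did WT untreated replicate 5 with 30.7%. The 20 endothelial markers summed to 234, 172 and 1447 CPM in KO CCl4 replicates 1, 2 and 3, against 29.6 to 62.8 CPM in KO untreated libraries. The 20 macrophage markers summed to 167, 391 and 5577 CPM in KO CCl4 replicates 1, 2 and 3, against 28.5 to 68.5 CPM in KO untreated libraries. Values of the CCl4 comparison in the knockout are therefore also given without KO CCl4 replicate 3.

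Promoter windows are shown for the genes whose levels carry the results: Nid1 and Col3a1, the members called higher after CCl4 in both genotypes, and Col4a1 and Col4a2, which are transcribed away from a shared promoter. The windows run from 250 bases before to 50 bases after the start of the gene, come from RefSeq on GRCm38.p6, and were held for 24 of the 36 genes. Nidogen 1 (Nid1, plus strand, chr13:13437352-13437651) and collagen III (Col3a1, plus strand, chr1:45311288-45311587) are printed with capitals at the letters CATTCC or their reverse complement, the core of the motif bound by TEAD, the DNA-binding partner of YAP and TAZ.
Nid1: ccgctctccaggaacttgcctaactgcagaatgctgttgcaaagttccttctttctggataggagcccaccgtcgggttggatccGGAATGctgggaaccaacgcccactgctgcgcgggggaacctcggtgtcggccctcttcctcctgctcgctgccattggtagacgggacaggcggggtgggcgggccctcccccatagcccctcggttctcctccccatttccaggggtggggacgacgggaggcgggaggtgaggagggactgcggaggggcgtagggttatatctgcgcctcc
Col3a1: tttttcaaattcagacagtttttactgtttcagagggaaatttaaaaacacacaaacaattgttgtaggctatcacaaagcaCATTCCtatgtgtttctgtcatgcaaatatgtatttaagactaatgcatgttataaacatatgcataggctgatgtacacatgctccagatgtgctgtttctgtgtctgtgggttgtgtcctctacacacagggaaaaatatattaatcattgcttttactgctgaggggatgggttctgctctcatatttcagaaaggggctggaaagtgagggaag
The windows of Col4a1 (minus strand, chr8:11312777-11313076) and Col4a2 (plus strand, chr8:11312555-11312854), which encode the chains of the main basement membrane collagen, are printed with capitals at the 78 bases that both hold, read from opposite strands.
Col4a1: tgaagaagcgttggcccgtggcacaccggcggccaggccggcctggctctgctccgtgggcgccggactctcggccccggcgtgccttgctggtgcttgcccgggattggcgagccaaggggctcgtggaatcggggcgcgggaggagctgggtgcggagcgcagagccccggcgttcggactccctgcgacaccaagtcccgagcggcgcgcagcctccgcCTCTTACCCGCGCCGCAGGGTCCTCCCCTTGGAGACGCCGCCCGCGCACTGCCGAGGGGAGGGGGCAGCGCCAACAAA
Col4a2: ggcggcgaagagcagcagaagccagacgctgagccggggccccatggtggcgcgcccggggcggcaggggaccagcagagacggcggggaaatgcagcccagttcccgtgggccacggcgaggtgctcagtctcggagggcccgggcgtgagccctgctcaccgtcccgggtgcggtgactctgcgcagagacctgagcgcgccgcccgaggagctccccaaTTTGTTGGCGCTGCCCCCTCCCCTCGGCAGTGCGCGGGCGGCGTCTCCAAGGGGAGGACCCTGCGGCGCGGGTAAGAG

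Searched on both strands, CATTCC was held by the windows of 6 of the 24 genes (Col3a1, Col6a2, Nid1, Timp1, Lrat and Acta2), which is 25%, against 14.7% of all 32851 windows of this length. The AP-1 letters TGANTCA were held by 2 of the 24 genes (Col6a1 and Ecm1), or 8.33%, against 7.81% of all windows. CCAAT, the letters bound by NF-Y, were held by 10 of the 24, or 41.7%, against 37.4% of all windows. The SRF CArG box was held by 0 of the 24 and by 1.63% of all windows. The set was counted by gene and the background by window. The 24 genes held 25 windows, of which 6, 2, 10 and 0 had a match, in the order above. These matches describe letters in a window, and no binding was measured.

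Over all 17 libraries, Fn1 set the level of the whole list. Fibronectin (Fn1, chromosome 1, 71585520 to 71653200, mm10) had a mean level of 150 RPKM (CPM per kilobase of exon), against 4.39 RPKM for Mmp14, the next gene in that order, 3.34 for Nid1, 3.19 for Col4a2, 2.87 for Sparc and 2.83 for Col4a1. At the low end, Loxl1 averaged 0.0328 RPKM, Acta2 0.0182 and Lox 0.0134. Because Fn1 outweighed the rest, the other 35 genes were also summed without it. They reached 284, 503 and 998 CPM in KO CCl4 replicates 1, 2 and 3, against 43.9, 62.7, 55.9 and 67.4 CPM in KO untreated libraries. In wild type they reached 138, 185, 113, 235 and 169 CPM after CCl4, against 77.3, 84.5, 74.4, 88.3 and 112 CPM in WT untreated libraries. In this sum without Fn1 the 4 groups fell in the order KO CCl4, WT CCl4, WT untreated and KO untreated. No library overlapped the next group, but the lowest WT CCl4 sum was 113 CPM and the highest WT untreated one 112 CPM. With Fn1 included, each group overlapped the next. Those sums ran from 2028 to 3285 CPM in KO CCl4 and from 1683 to 2541 CPM in WT CCl4 libraries. They ran from 1470 to 2195 CPM in WT untreated and from 1310 to 1592 CPM in KO untreated libraries. Of the 36 genes, 0 were without a count in any KO CCl4 library, against 10 to 19 in KO untreated libraries. In wild type 1 to 4 were without a count in WT CCl4 libraries, against 6 to 14 in WT untreated libraries. These numbers depend on depth. Scaled library sizes were 15865173 to 28027154 in WT CCl4 and 9919321 to 15920234 in WT untreated libraries. They were 12695770 to 27965865 in KO CCl4 and 11685909 to 22774099 in KO untreated libraries. The part of depth was not tested, and the share of all genes at 0 was not counted.

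**Figure D1:**
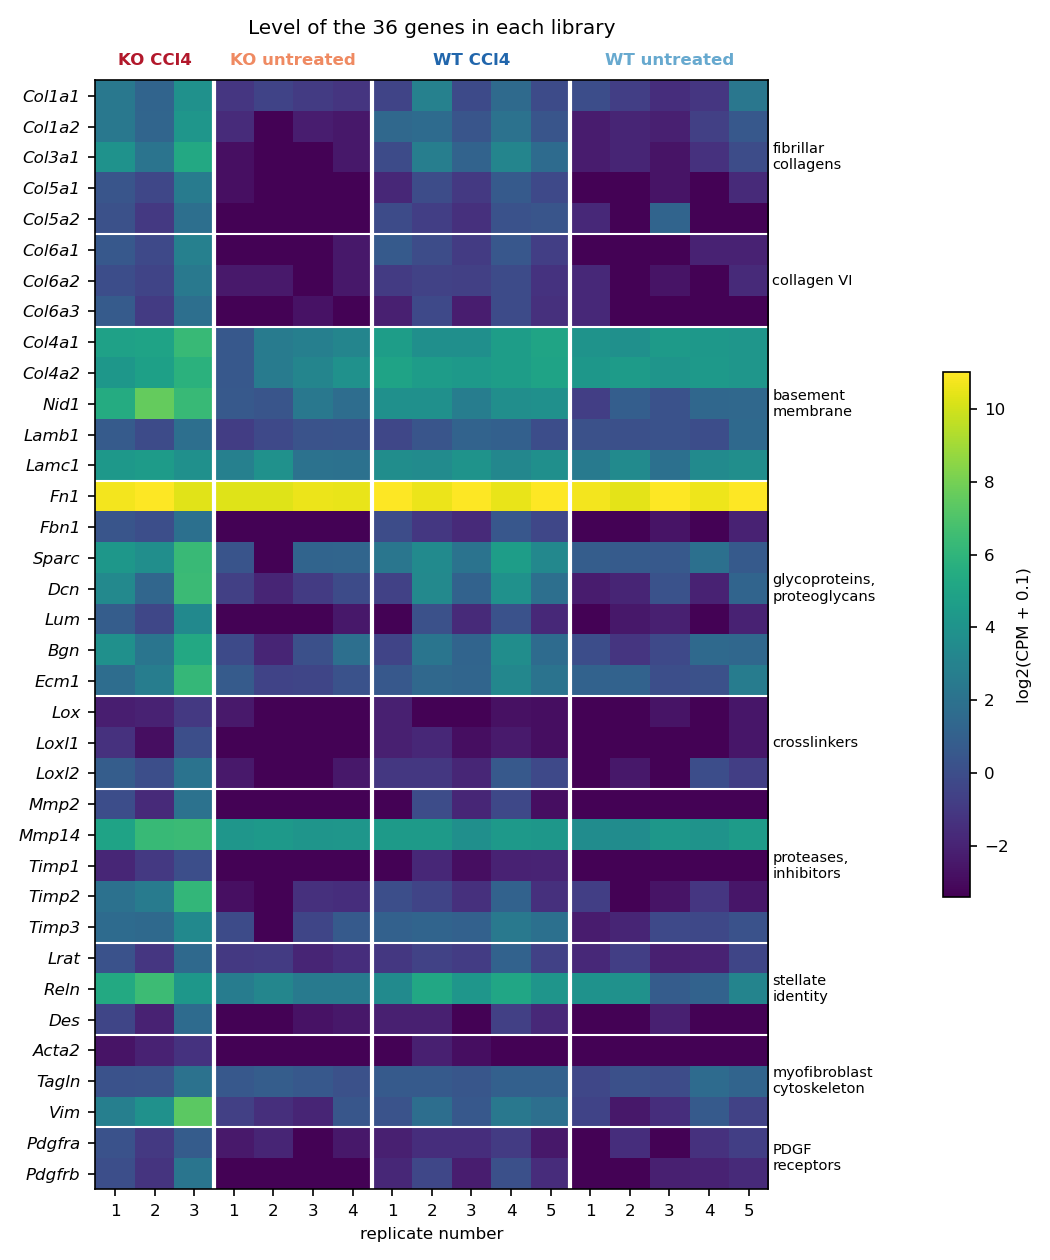
Level of the 36 genes (rows, grouped by role) in each of the 17 libraries (columns, with replicate numbers), as log2(CPM + 0.1). The KO CCl4 columns are the brightest for most rows, the KO untreated columns hold many genes at 0, and Fn1 is high in every column.

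The first comparison asked what CCl4 changed in the knockout. In KO CCl4 libraries 26 of the 30 tested genes were called higher than in KO untreated libraries, none was called lower, and 4 (Lamb1, Fn1, Lrat and Tagln) did not pass the test. A gene is called at an adjusted p under 0.05 in edgeR's quasi-likelihood test, adjusted over all genes tested. Of all genes tested, 12.1% were called higher and 19.0% were called in either direction. Counted by an unadjusted p under 0.05, 27 of the 30 were higher and 0 were lower, against 4151 of all 13721 genes in either direction. The median log2 fold change of the 30 genes was 5.14, or 4.78 with the 4 genes that have no counts in KO untreated libraries set to their bound, against 0.01 for all genes. Without KO CCl4 replicate 3, 19 of the 30 were called higher, against 7.54% of all genes, and the median was 3.56 (3.44 with those 4 genes at their bound). With no filter on low counts, 30 of the 36 were called higher, against 8.11% of all genes. Every KO CCl4 library lay above every KO untreated library for 31 of the 36 genes and for 25 of the 30 tested, against 14.4% of all genes tested. Of the 30 tested genes, 6 (Col6a2, Col6a3, Lum, Mmp2, Lrat and Pdgfrb) passed the filter only through KO CCl4 libraries. All of these but Lrat are among the 26 called. They were tested because of the group in which they were then found higher, so their calls are not independent support.

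The fibrillar collagens, the chains of the fibres that make scar tissue, were all called higher after CCl4 in the knockout (5 of 5, with log2 fold changes from 4.06 for Col1a1 to 8.98 for Col3a1). Col3a1 (chromosome 1, 45311538 to 45349706) had 15.2, 4.33 and 38.4 CPM in KO CCl4 libraries, against 0.0439, 0, 0 and 0.0838 CPM in KO untreated libraries. The ranges did not overlap, and the KO untreated group held 2 counts of Col3a1 in all, against 864 in KO CCl4, a ratio of 486 with a 95% counting interval of 134 to 4022 (272, with 74.7 to 2252, without replicate 3). The log2 fold change of Col3a1 was 8.98 ± 1.18 (SE, adjusted p = 2.72e-04), and 8.0 without KO CCl4 replicate 3 (adjusted p = 8.59e-04). Col1a1, the main chain of collagen I, averaged 7.29 ± 6.45 CPM in KO CCl4 (SD, n = 3) and 0.431 ± 0.121 CPM in KO untreated libraries (n = 4). Its call (adjusted p = 0.0140) did not hold without KO CCl4 replicate 3 (adjusted p = 0.0810), nor did that of Col5a2 (0.0717 without it), which had 0 counts in KO untreated libraries and was at least 27.4-fold higher in KO CCl4 (at least 13.5-fold without it). Col1a2, the second chain of collagen I, averaged 8.47 CPM in KO CCl4 and 0.103 CPM in KO untreated libraries, and its log2 fold change was 6.10 ± 0.98 (adjusted p = 6.82e-04), or 4.91 without replicate 3. Col1a2 and Col5a1 were called with and without that library; Col5a1 had 115 counts in KO CCl4, against 1 in KO untreated libraries, a ratio of 129 (22.8 to 5157), or 56.4 (9.54 to 2283) without it.

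The 3 chains of collagen VI, a beaded filament that links cells to the matrix, were called higher with and without KO CCl4 replicate 3. Col6a2 and Col6a3 had passed the filter of the main fit only through KO CCl4 libraries, so their calls there are not independent support. Col6a1 (chromosome 10, 76708792 to 76726168) had 1.38, 0.751 and 7.09 CPM in KO CCl4 libraries, against 0, 0, 0 and 0.0838 CPM in KO untreated libraries. The lowest KO CCl4 value was above the highest KO untreated one. Its log2 fold change was 7.02 ± 1.22 (adjusted p = 0.00105), and 134 counts in KO CCl4, against 1 in KO untreated libraries, gave a ratio of 151 (95% counting interval 26.6 to 6001), or 63.6 (10.8 to 2568) without replicate 3. Col6a3, with 82 counts in KO CCl4, against 1 in KO untreated libraries, gave 92.3 (16.1 to 3690), or 54.9 (9.28 to 2226) without replicate 3. Col6a2 had a log2 fold change of 5.03 ± 1.01 (adjusted p = 0.00254), or 3.48 without replicate 3.

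Among the basement membrane genes 4 of 5 were called higher in KO CCl4 libraries. Nid1, which bridges the laminin and collagen IV networks (chromosome 13, 13437551 to 13512269), had 43.8, 190 and 79.2 CPM in KO CCl4 libraries, against 1.45, 1.20, 5.00 and 3.27 CPM in KO untreated libraries. Replicate 2, and not replicate 3, was the highest. The log2 fold change was 5.25 ± 0.59 (adjusted p = 8.62e-05), and 5.41 without replicate 3. Col4a1 (chromosome 8, 11198423 to 11312826) had 28.4, 30.6 and 80.0 CPM in KO CCl4 libraries, against 1.41, 5.82, 6.98 and 8.63 CPM in KO untreated libraries, a log2 fold change of 3.03 ± 0.49 (adjusted p = 6.77e-04), or 2.39 without replicate 3. Its partner Col4a2 averaged 33.6 ± 19.2 CPM in KO CCl4 and 7.69 ± 5.53 CPM in KO untreated libraries (log2 fold change 2.14 ± 0.49, adjusted p = 0.00604, or 1.58 with 0.0493 without replicate 3), and neither gene overlapped between the groups. Per length, Col4a1 stood to Col4a2 as 1.36, 1.01 and 1.29 in KO CCl4 libraries, against 0.525 to 0.915 in KO untreated, 0.515 to 0.930 in WT CCl4 and 0.537 to 1.13 in WT untreated libraries. This ratio was picked after its values were seen and was not tested. Lamc1, the gamma chain of most laminins, was called at 1.35 ± 0.44 (adjusted p = 0.0431) with overlapping ranges, and the call was lost in 10 of the 17 fits that each left out a library. The beta chain gene Lamb1 had a log2 fold change of 1.15 ± 0.58 (adjusted p = 0.198), or 0.43 without replicate 3 (adjusted p = 0.711).

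Of the glycoproteins and proteoglycans 6 of 7 were called higher, and fibronectin was not. Fn1 had 1744, 2781 and 1318 CPM in KO CCl4 libraries, against 1266, 1255, 1536 and 1476 CPM in KO untreated libraries. The ranges overlapped through replicate 3 alone, as replicates 1 and 2 lay above every KO untreated library. The log2 fold change was 0.49 ± 0.24 (adjusted p = 0.180), or 0.71 without replicate 3 (adjusted p = 0.0634, not called). Ecm1, a secreted protein known to hold latent TGF-beta in the mouse liver (chromosome 3, 95734147 to 95739569), had 3.29, 6.36 and 73.5 CPM in KO CCl4 libraries, against 1.58, 0.599, 0.659 and 1.09 CPM in KO untreated libraries. Replicate 3 held most of the Ecm1 signal: the log2 fold change was 4.78 ± 0.99 (adjusted p = 0.00318), and 2.28 without it (adjusted p = 0.0590). Sparc, a collagen-binding glycoprotein, averaged 38.2 ± 39.1 CPM in KO CCl4 and 1.46 ± 1.11 CPM in KO untreated libraries (log2 fold change 4.68 ± 0.85, adjusted p = 0.00143, or 3.41 with 0.0111 without replicate 3). Fibrillin 1 (Fbn1), the core of elastic microfibrils, had 0 counts in the KO untreated libraries and 93 in KO CCl4, at least 34.9-fold higher (at least 22.2-fold without replicate 3). Of the collagen-binding proteoglycans, decorin (Dcn) had 10.1, 2.50 and 83.6 CPM in KO CCl4 libraries, against a mean of 0.494 CPM in KO untreated libraries. Its log2 fold change was 5.99 ± 1.28 (adjusted p = 0.00382), or 3.65 without replicate 3 (adjusted p = 0.0464), and limma voom did not call it. Lumican (Lum), which passed the filter only through KO CCl4 libraries, had 183 counts in KO CCl4, against 1 in KO untreated libraries. This is a ratio of 206 (36.5 to 8180), or 67.9 (11.6 to 2740) without replicate 3. Biglycan (Bgn) had a log2 fold change of 3.83 ± 1.00 (adjusted p = 0.0126), and its call did not hold without replicate 3 (adjusted p = 0.0877).

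The lysyl oxidases, which crosslink collagen and elastin, were among the low genes of the list. Loxl2 (chromosome 14, 69609068 to 69695834) had 1.67, 0.930 and 4.17 CPM in KO CCl4 libraries, against 0.0878, 0, 0 and 0.0838 CPM in KO untreated libraries. The ranges did not overlap, and the log2 fold change was 5.42 ± 1.27 (adjusted p = 0.00670), or a ratio of 40.1 (13.4 to 198) over 3 counts in KO untreated libraries. Without replicate 3 the ratio was 26.0 (8.44 to 130). Lox and Loxl1 were not tested. Lox had 11 counts in KO CCl4 libraries, against 2 in KO untreated libraries, a ratio of 6.19 (1.35 to 57.5), or 4.34 (0.775 to 43.9) without replicate 3. Loxl1 had 18 counts in KO CCl4 libraries, against 0 in KO untreated libraries, at least 6.75-fold higher (at least 2.89-fold without replicate 3). An annotated antisense gene shares 301 of the 5405 exon bases of Loxl2 and had 1438 counts over all libraries, against 196 of Loxl2. The strand setting of the counting is not given, so reads over the shared bases cannot be told apart.

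All 4 tested proteases and inhibitors were called higher in KO CCl4 libraries. Mmp14, a membrane-anchored collagenase that activates pro-MMP2 (chromosome 14, 54431612 to 54445364), had 30.4, 77.8 and 86.9 CPM in KO CCl4 libraries, against 17.5, 21.1, 16.9 and 17.5 CPM in KO untreated libraries. All 3 KO CCl4 values were the higher ones, with a log2 fold change of 1.83 ± 0.30 (adjusted p = 7.24e-04), or 1.57 without replicate 3. Timp2, an inhibitor that also takes part in that activation (chromosome 11, 118301069 to 118355740), had 3.89, 6.01 and 69.1 CPM in KO CCl4 libraries, against 0.0439, 0, 0.275 and 0.251 CPM in KO untreated libraries. Replicate 3 was higher than replicates 1 and 2 together, and the log2 fold change was 7.47 ± 1.20 (adjusted p = 7.08e-04), or 5.06 without it. Mmp2 (gelatinase A) had 0 counts in KO untreated libraries and 71 in KO CCl4, at least 26.6-fold higher. Without replicate 3 it was at least 10.1-fold higher and not called (adjusted p = 0.0876). Mmp2 passed the filter only through KO CCl4 libraries. Timp3, an inhibitor bound to the matrix, had a log2 fold change of 2.87 ± 0.82 (adjusted p = 0.0214), and 1.96 without replicate 3 (adjusted p = 0.144). Timp3 shares 1733 exon bases with Syn3 on the opposite strand. Timp1, the inhibitor most used as a mark of liver fibrosis, was not tested: it had 26 counts in KO CCl4 libraries and 0 in KO untreated libraries, at least 9.76-fold higher (at least 6.75-fold without replicate 3).

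The markers of stellate identity gave mixed results. Reln, a secreted glycoprotein that marks stellate cells in the liver (chromosome 5, 21884454 to 22344702), had 39.9, 87.1 and 18.4 CPM in KO CCl4 libraries, against 6.10, 9.24, 5.50 and 5.44 CPM in KO untreated libraries. It was lowest in replicate 3, and the log2 fold change was 2.89 ± 0.68 (adjusted p = 0.00694), or 3.28 without replicate 3. Lrat, the enzyme that esterifies retinol for storage, had 1.08, 0.358 and 2.76 CPM in KO CCl4 libraries, against 0.395, 0.428, 0.165 and 0.251 CPM in KO untreated libraries. Its ranges overlapped, with a log2 fold change of 2.13 ± 0.79 (adjusted p = 0.0723), or 1.18 without replicate 3 (adjusted p = 0.407). Desmin (Des), a muscle-type intermediate filament of stellate cells, was not tested and had 53 counts in KO CCl4 libraries, against 2 in KO untreated libraries, a ratio of 29.8 (7.86 to 253), or 10.8 (2.52 to 97.7) without replicate 3.

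Genes of the myofibroblast cytoskeleton and the PDGF receptors were low but for Vim. Acta2 (smooth muscle actin), the standard mark of an activated stellate cell, had 9 counts over the 3 KO CCl4 libraries and 0 counts over KO untreated libraries, at least 3.38-fold higher (at least 2.41-fold without replicate 3), and was too low to test. Tagln, its calponin-related partner, averaged 2.04 ± 1.64 CPM in KO CCl4 and 1.36 ± 0.288 CPM in KO untreated libraries. The ranges overlapped, with a log2 fold change of 0.56 ± 0.54 (adjusted p = 0.544), or -0.32 without replicate 3 (adjusted p = 0.765). On the opposite strand, Tagln shares 108 of its 1988 exon bases with Pcsk7 and 1241 with another annotated gene. Pcsk7 had 6924 counts over all libraries, against 464 of Tagln. With the strand setting not given, the part of these genes in the Tagln level was not tested. Vimentin (Vim, chromosome 2, 13573927 to 13582826), an intermediate filament of all mesenchymal and many blood cells, had 6.94, 14.6 and 164 CPM in KO CCl4 libraries, against 0.527, 0.257, 0.165 and 1.26 CPM in KO untreated libraries. Replicate 3 again held most of it, with a log2 fold change of 6.84 ± 1.07 (adjusted p = 6.03e-04), or 4.31 without it. Pdgfrb, the receptor for the main stellate cell mitogen (chromosome 18, 61045150 to 61085061), had 0.957, 0.322 and 4.57 CPM in KO CCl4 libraries and no count in any KO untreated library, at least 31.1-fold higher. Replicate 3 held 58 of its 83 counts, and without it Pdgfrb was at least 12.04-fold higher and still called (adjusted p = 0.0171). In the main fit Pdgfrb passed the filter only through KO CCl4 libraries. Pdgfra was not tested and had 50 counts in KO CCl4 libraries, against 5 in KO untreated libraries.

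**Figure D2:**
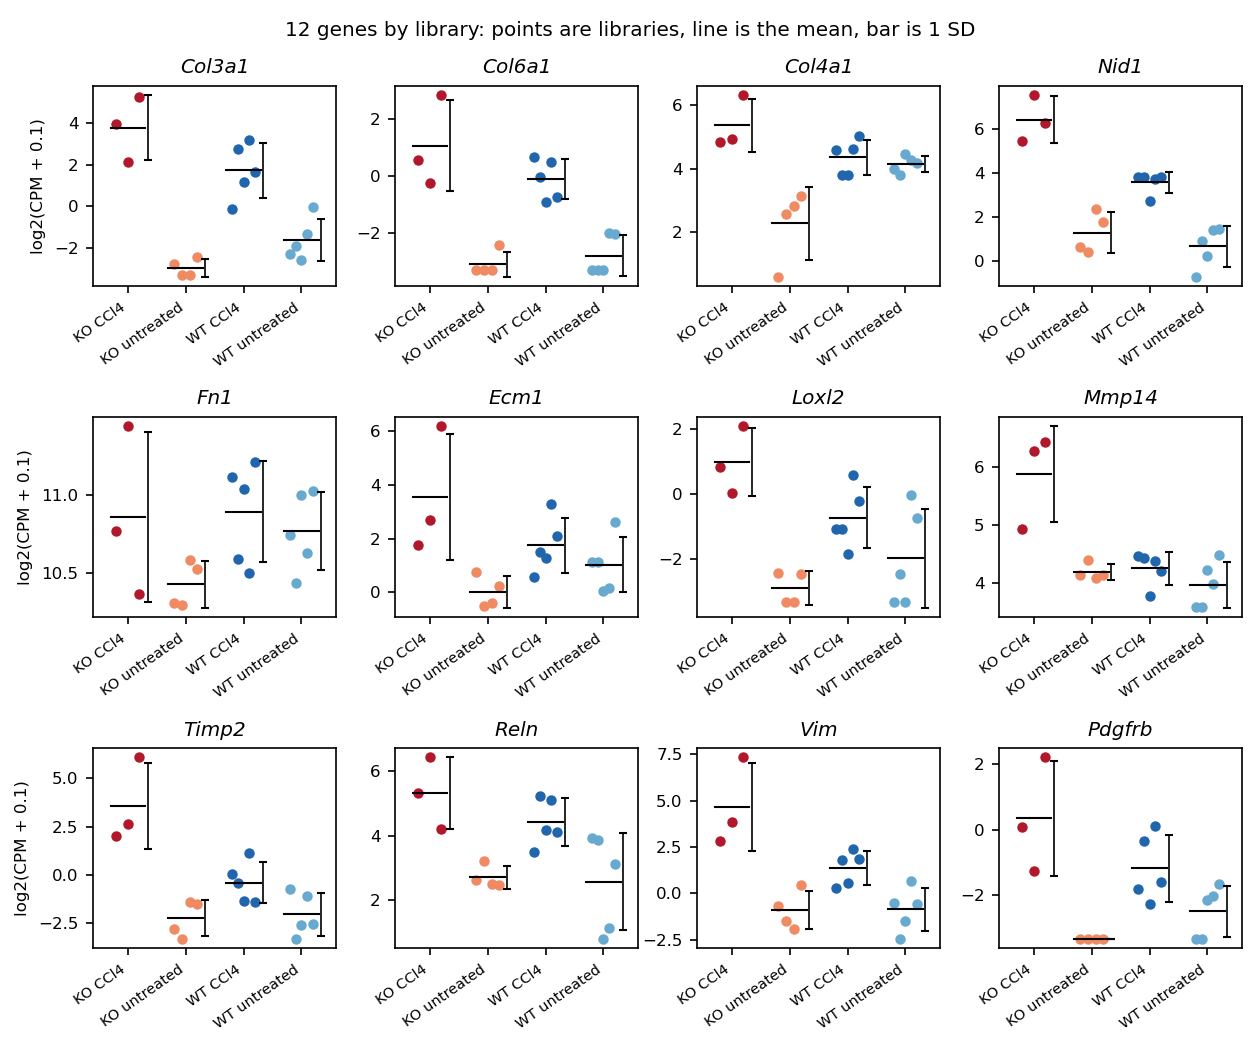
Level of 12 of the genes in each library, as log2(CPM + 0.1), by group, with a line at the group mean and a bar of 1 SD. KO CCl4 points lie above all KO untreated points in every panel but that of Fn1, and Nid1, Reln and Fn1 are highest in KO CCl4 replicate 2 (the middle point of that group).

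The KO CCl4 libraries differed in which genes they held. For 32 of the 36 genes replicate 3 had the highest level of the 3, and for Nid1, Reln, Fn1 and Lamc1 replicate 2 had it. Replicate 3 was the highest for all 20 endothelial and all 20 macrophage markers, for 66.4% of all genes called higher and for 41.2% of all genes tested. Of the level summed over the 3 libraries, replicate 3 held a median of 66.0% for the 36 genes, 74.3% for the endothelial markers and 92.0% for the macrophage markers. Among the 36 genes that share ran between 12.7% and 88.4%, and replicate 2 held up to 60.7%. Without replicate 3, 17 of the 20 macrophage markers and 8 of the 20 endothelial markers were called higher in KO CCl4 than in KO untreated libraries. A list of 21 other stellate markers, led by the chemokine gene Cxcl12, summed to 171 to 446 CPM in KO CCl4 libraries, against 143 to 264 CPM in KO untreated libraries. Cxcl12, which averaged 116 CPM in KO CCl4 and 160 CPM in KO untreated libraries, was not called (-0.47 ± 0.25, adjusted p = 0.217), while 9 of the 14 tested genes of that list were called higher (4 of 15 without replicate 3). Gfap, a stellate and glial filament on that list, had no count in KO CCl4 libraries. The part of these markers' cells in the levels of the 36 genes was not tested. This comparison of the 3 libraries was chosen after the data were seen.

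**Figure D3:**
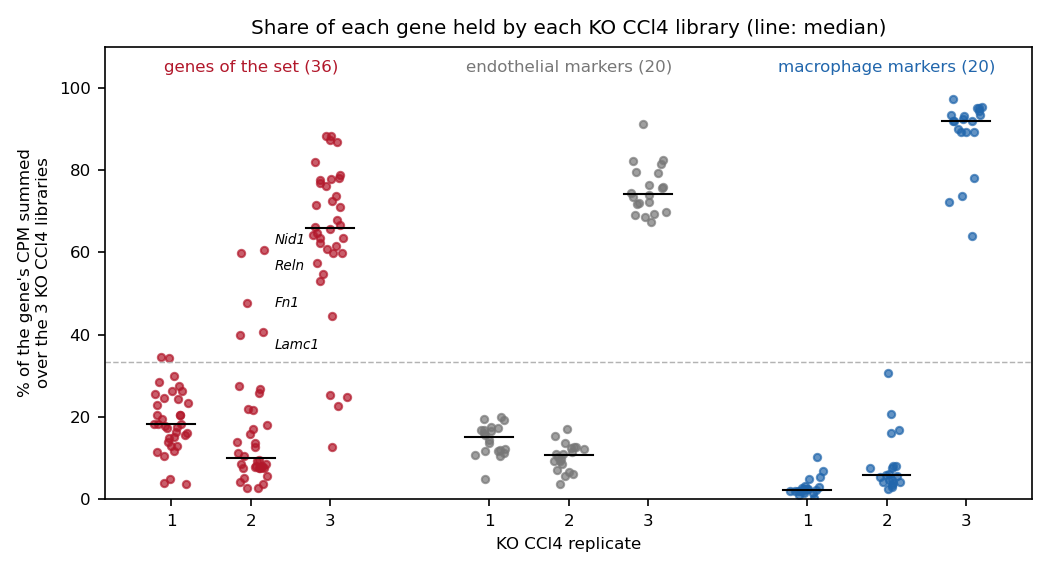
Percentage of each gene's level, summed over the 3 KO CCl4 libraries, that each of them held (points are genes, lines are medians, the dashed line marks equal shares). For the 36 genes replicate 3 held a median of 66.0% and 4 genes, named in the plot, were highest in replicate 2, while every endothelial and macrophage marker was highest in replicate 3.

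The same comparison was made in wild type. In WT CCl4 libraries 2 of the 30 tested genes, Nid1 and Col3a1, were called higher than in WT untreated libraries, and none was called lower. Of all genes tested, 0.576% were called higher and 0.853% in either direction. At an unadjusted p under 0.05, 15 of the 30 were higher and 0 lower, against 2023 of all 13721 genes in either direction. DESeq2 called 8 higher (Col1a2, Col3a1, Col5a1, Col6a1, Fbn1, Nid1, Sparc and Timp3) and 0 lower, against 319 and 175 of all genes. The limma voom fit called 3 (Col6a1, Fbn1 and Nid1), against 435 of all genes in either direction. All 30 had a log2 fold change above 0, with a median of 2.04, against -0.01 for all genes. WT CCl4 libraries lay wholly above WT untreated libraries for 6 of the 36 genes (Col6a1, Col6a2, Nid1, Fbn1, Sparc and Timp3), against 3.15% of all genes tested.

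Nid1 had 14.2, 13.9, 6.53, 13.0 and 14.2 CPM in WT CCl4 libraries, against 0.504, 1.75, 1.07, 2.58 and 2.67 CPM in WT untreated libraries. Replicate 3 was the low one of the CCl4 group and was still above every untreated library. The log2 fold change was 2.82 ± 0.49 (adjusted p = 0.00971), and it stayed called whichever of the 17 libraries was left out (2.61 to 3.04). Col3a1 had 0.810, 6.62, 2.14, 8.93 and 3.06 CPM in WT CCl4 libraries, against 0.101, 0.167, 0.0628, 0.295 and 0.867 CPM in WT untreated libraries. The lowest CCl4 value was below the highest untreated one, and the log2 fold change was 3.79 ± 0.79 (adjusted p = 0.0302). The call of Col3a1 was lost in 6 of the 17 fits that left out a library, which were those without WT CCl4 replicate 2 or 4 or WT untreated replicate 1, 2, 3 or 4, with an adjusted p of up to 0.0869.

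Other fibrillar and collagen VI chains in wild type had large fold changes with wide errors. Col6a1 had 1.496, 0.882, 0.428, 1.32 and 0.503 CPM in WT CCl4 libraries, against 0, 0, 0, 0.147 and 0.145 CPM in WT untreated libraries. Its ranges did not overlap, but the log2 fold change of 3.77 ± 0.93 did not pass in edgeR (adjusted p = 0.0757) and passed in DESeq2 (adjusted p = 0.0126). Fbn1 (3.75 ± 0.89, adjusted p = 0.0774), Sparc (2.45 ± 0.69, 0.115) and Timp3 (2.37 ± 0.71, 0.136) likewise had separate ranges and no call by edgeR, and DESeq2 called all 3 (adjusted p = 0.0221, 0.0108 and 0.0198). Mmp2 had 35 counts in WT CCl4 libraries and 0 in WT untreated libraries, at least 7.16-fold higher, with an adjusted p of 0.214.

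Genes with a clear level in untreated wild type were not called. Col4a1 had 24.0, 13.7, 13.8, 24.7 and 32.5 CPM in WT CCl4 libraries, against 15.9, 13.9, 21.7, 19.3 and 18.0 CPM in WT untreated libraries, with a log2 fold change of 0.29 ± 0.39 (adjusted p = 0.788). Mmp14 had 21.9, 21.6, 13.6, 20.7 and 18.4 CPM in WT CCl4 libraries, against 11.9, 11.8, 18.5, 15.7 and 22.3 CPM in WT untreated libraries (0.26 ± 0.25, adjusted p = 0.689). Fn1 had 2216, 1541, 2107, 1448 and 2372 CPM in WT CCl4 libraries, against 1715, 1385, 2051, 1582 and 2083 CPM in WT untreated libraries (0.14 ± 0.20, adjusted p = 0.815). These 3 genes overlapped between the groups. Reln had 11.2, 37.5, 17.9, 34.7 and 17.3 CPM in WT CCl4 libraries, against 15.02, 14.4, 1.63, 2.06 and 8.60 CPM in WT untreated libraries (1.52 ± 0.56, adjusted p = 0.212). Acta2 had 3 counts in WT CCl4 libraries and 0 in WT untreated libraries, too few for a fold.

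Markers of other cells also differed in wild type. The 20 endothelial markers summed to 56.8 to 301 CPM in WT CCl4 libraries, against 14.6 to 67.6 CPM in WT untreated libraries, and 2 of the 20 were called higher. The 20 macrophage markers summed to 55.0 to 158 CPM in WT CCl4 libraries, against 21.0 to 78.1 CPM in WT untreated libraries, and 0 of the 20 were called. WT CCl4 replicate 4 had the highest endothelial and macrophage sums of its group and the highest sum of the 35 genes without Fn1 (235 CPM). No marker of either list was at 0 in a whole group. Their part in the wild-type differences was not tested.

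**Figure D4:**
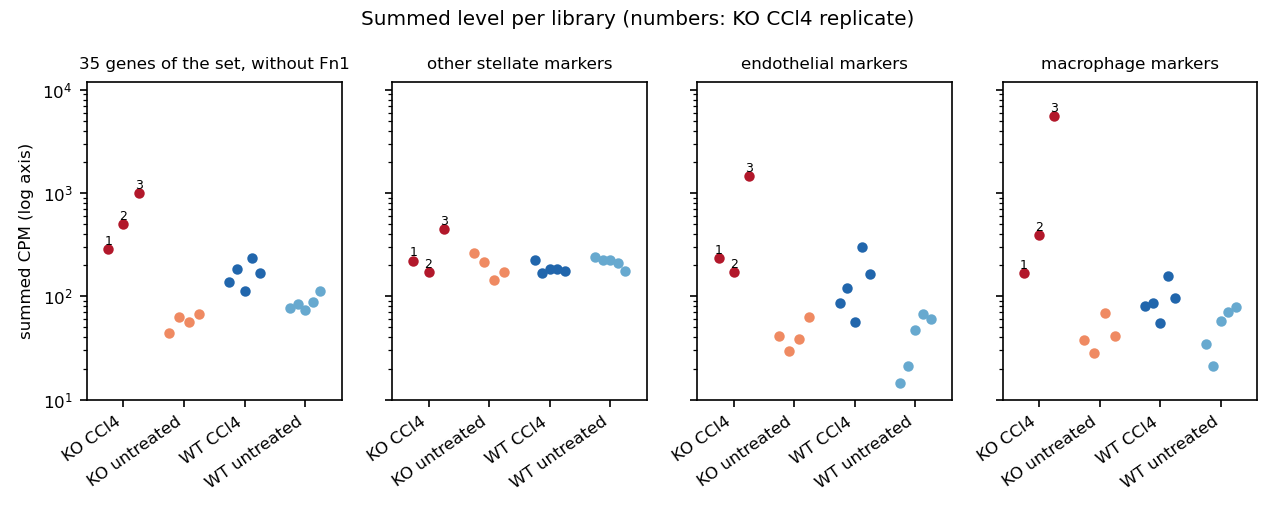
Summed level per library, on a log axis, of the 35 genes without Fn1, of 21 other stellate markers and of 20 endothelial and 20 macrophage markers, by group, with KO CCl4 replicates numbered. The sum of the 35 genes separates the 4 groups, narrowly in wild type (lowest WT CCl4 sum 113 CPM, highest WT untreated sum 112 CPM). The sum of other stellate markers, led by Cxcl12, overlaps between groups, although 9 genes of that list were called higher in KO CCl4 than in KO untreated libraries. The macrophage sum of KO CCl4 replicate 3 reaches 5577 CPM.

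After CCl4 the knockout was set against wild type. In KO CCl4 libraries 5 of the 30 tested genes were called higher than in WT CCl4 libraries (Nid1, Mmp14, Timp2, Vim and Ecm1), and none was called lower. Of all genes tested, 7.62% were called higher and 11.8% in either direction. At an unadjusted p under 0.05, 17 were higher and 0 lower, against 3560 of all 13721 genes in either direction. DESeq2 called 7 higher and 0 lower, against 1269 and 822 of all genes. The median log2 fold change was 1.79, against 0.04 for all genes. Without KO CCl4 replicate 3 only Nid1 and Mmp14 of the 30 were called, against 1.75% of all genes, and the median was 0.53. KO CCl4 libraries lay wholly above WT CCl4 libraries for 4 genes (Nid1, Mmp14, Timp2 and Vim), against 10.1% of all genes tested.

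Nid1, at 43.8, 190 and 79.2 CPM in KO CCl4 libraries, against 6.53 to 14.2 CPM in WT CCl4 libraries, had a log2 fold change of 3.08 ± 0.49 (adjusted p = 0.00117). It was as large without KO CCl4 replicate 3 (3.24, adjusted p = 0.00370). Mmp14, at 30.4, 77.8 and 86.9 CPM in KO CCl4 libraries, against 13.6 to 21.9 CPM in WT CCl4 libraries, had one of 1.76 ± 0.28 (adjusted p = 0.00112), or 1.5 without replicate 3 (adjusted p = 0.0119). These 2 genes were called whichever library was left out. Timp2 had 0.935, 0.630, 0.285, 2.05 and 0.271 CPM in WT CCl4 libraries, and its log2 fold change of 4.98 ± 0.93 (adjusted p = 0.00299) became 2.57 (adjusted p = 0.128) without KO CCl4 replicate 3. Vim had 1.12, 3.34, 1.36, 5.07 and 3.52 CPM in WT CCl4 libraries, and its log2 fold change of 4.41 ± 0.84 (adjusted p = 0.00355) became 1.90 (adjusted p = 0.171). Ecm1 had 1.37, 2.71, 2.35, 9.66 and 4.22 CPM in WT CCl4 libraries, and overlapped KO CCl4; its log2 fold change of 2.76 ± 0.83 (adjusted p = 0.0402) became 0.25 (adjusted p = 0.917). Its call was also lost without KO untreated replicate 4 or WT CCl4 replicate 1, 2, 3 or 5.

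Of the 5 fibrillar collagens, edgeR called 0 between the genotypes after CCl4, and Col3a1 came nearest with 2.16 ± 0.71 (adjusted p = 0.0593). DESeq2 (2.19, adjusted p = 0.0475) and limma voom called Col3a1, and without KO CCl4 replicate 3 it was 1.18 (adjusted p = 0.478 in edgeR). The collagen VI chains had log2 fold changes of 1.72 to 2.10, and the lowest adjusted p among them was 0.0948, for Col6a2. Pdgfrb had 0.187, 0.693, 0.107, 0.976 and 0.232 CPM in WT CCl4 libraries, with a log2 fold change of 2.13 ± 0.93 (adjusted p = 0.165). Loxl2 had 0.374, 0.378, 0.178, 1.41 and 0.774 CPM in WT CCl4 libraries (1.83 ± 0.94, adjusted p = 0.235). Fn1 differed by 0.01 ± 0.23 (adjusted p = 0.988). In this comparison 20 of the 20 macrophage markers and 7 of the 20 endothelial markers were called higher, and without KO CCl4 replicate 3 the counts were 4 and 0 of 20. Their part in the differences of the 36 genes was not tested.

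The genotypes were also compared without CCl4. None of the 30 tested genes was called by edgeR in KO untreated against WT untreated libraries, where 0.933% of all genes were called. At an unadjusted p under 0.05, 0 were higher and 5 lower, against 1203 of all 13721 genes in either direction. DESeq2 called 1, Col4a1, lower, and limma voom called 0, against 328 and 214 of all genes in either direction. The median log2 fold change was -0.63, also with the genes at 0 in a group at their bounds, against -0.01 for all genes, and 3 of the 30 genes had one above 0. KO untreated libraries lay wholly below WT untreated libraries for 2 of the 36 genes, Col4a1 and Col4a2, against 1.89% of all genes tested. Col4a1 had 1.41, 5.82, 6.98 and 8.63 CPM in KO untreated libraries, against 15.9, 13.9, 21.7, 19.3 and 18.0 CPM in WT untreated libraries (-1.66 ± 0.44, adjusted p = 0.102). Col4a2 averaged 7.69 ± 5.53 CPM in KO untreated (SD, n = 4) and 19.5 ± 2.35 CPM in WT untreated libraries (n = 5), with a log2 fold change of -1.36 ± 0.45 (adjusted p = 0.246). Of the 2 genes at 0 in KO untreated libraries with more than 3 counts in WT untreated libraries, Col5a2 had 38 counts, 36 of them in replicate 3, and was at least 12.5-fold lower in KO untreated libraries, while Pdgfrb had 7 counts and was at least 2.31-fold lower. Neither passed the test (adjusted p = 0.300 and 0.497).

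The interaction term of the fit compared the CCl4 effects of the genotypes. Col4a1 was the only gene of the 30 whose CCl4 effect edgeR called different between the genotypes, with 1.09% of all genes called in either direction. The effect in the knockout exceeded that in wild type by 2.74 ± 0.61 log2 (adjusted p = 0.0443), made up of 3.03 ± 0.49 in the knockout and 0.29 ± 0.39 in wild type. The difference was called in 3 of the 17 fits that left out a library, and without KO CCl4 replicate 3 it was 2.10 (adjusted p = 0.137). At an unadjusted p under 0.05, 16 of the 30 were higher, against 2343 of all 13721 genes in either direction. DESeq2 called 8 (Col1a2, Col3a1, Col4a1, Ecm1, Mmp14, Nid1, Timp2 and Vim) and limma voom 0, against 783 and 2 of all genes. The KO untreated level of Col4a1 enters this difference as its baseline and was the lowest of the 4 groups.

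**Figure D5:**
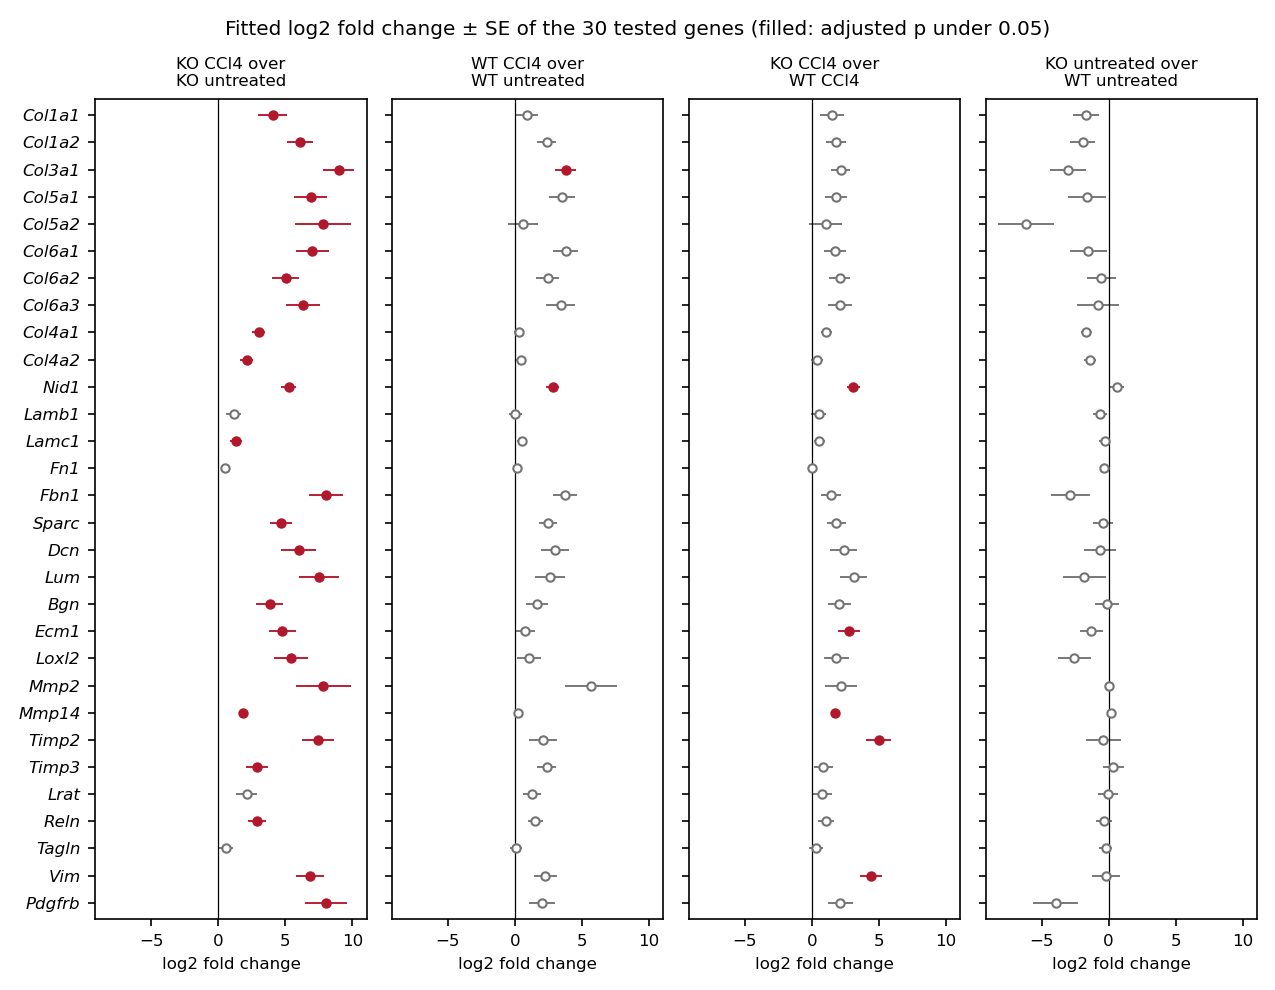
Fitted log2 fold change with its standard error for the 30 tested genes in the 4 comparisons of groups, filled where the adjusted p was under 0.05. Counts of filled points are 26, 2, 5 and 0 from left to right, and the values of Col5a2, Fbn1, Mmp2 and Pdgfrb depend on a prior count where a group is at 0.

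Genes outside the list of 36 were read in the same fit. A wider list of 132 further matrix, collagen-processing, stellate, portal fibroblast and integrin genes had 90 tested genes, of which 46 were called higher and 2 (Lama3 and Col27a1) lower in KO CCl4 against KO untreated libraries. Which of the 90, or of the cell markers above, passed the filter only through KO CCl4 libraries was not worked out. Calls of such genes as higher in KO CCl4 libraries would not be independent support. The shares or counts over all genes are those given above for each comparison and tool. The 5 with the smallest p were all higher. They were Adamts1, a protease of proteoglycans (3.53 ± 0.39 log2, adjusted p = 8.62e-05), Eln, the gene of elastin (6.59 ± 0.89, 3.19e-04), Mmp12, the macrophage elastase (6.53 ± 0.92, 3.91e-04), Smoc2, a matricellular protein (3.69 ± 0.59, 6.41e-04), and Pcolce, which speeds the trimming of procollagen (3.05 ± 0.50, 7.63e-04). Without KO CCl4 replicate 3, 25 of 91 tested were called higher and these 5 stayed called. Of these 5, Mmp12 moved most without that library, to 3.66. In wild type edgeR called 2 of the 90 higher after CCl4, Eln (4.59 ± 0.90, adjusted p = 0.0216) and Adamts1 (1.45 ± 0.33, 0.0497), and 1 lower, Col27a1. DESeq2 called 13 higher and 1 lower, limma voom 5 higher and 1 lower, and at an unadjusted p under 0.05 in edgeR 33 were higher and 3 lower. Next by p, and not called, were Cd34 (adjusted p = 0.0673) and Itga8 (0.0707). Col27a1, a fibrillar collagen best known from cartilage, averaged 7.97 ± 3.25 CPM in WT CCl4 and 43.6 ± 30.4 CPM in WT untreated libraries (SD, n = 5 each; -2.45 ± 0.45 log2, adjusted p = 0.0150). In the knockout it averaged 4.02 ± 1.73 CPM with CCl4 (n = 3) and 28.0 ± 11.8 CPM without (n = 4). In KO CCl4 against WT CCl4 libraries 22 of the 90 were called higher and 0 lower by edgeR and by DESeq2, with 40 higher and 1 lower at an unadjusted p under 0.05. Among them Adamts1 differed by 2.55 ± 0.35 (adjusted p = 4.32e-04) and Mmp12 by 5.85 ± 0.80 (4.33e-04). Without KO CCl4 replicate 3, 5 of 91 were called higher, Adamts1 by 2.05 and Mmp12 by 2.99. For the difference of the CCl4 effects edgeR called 1 of the 90, Mmp12 (6.32 ± 1.12, adjusted p = 0.0316, or 3.45 with 0.0320 without that library), DESeq2 called 10 higher and 1 lower, and limma voom called 0. In KO untreated against WT untreated libraries edgeR called 0 of the 90, DESeq2 and limma voom called 1 each, and 3 were higher and 5 lower at an unadjusted p under 0.05.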

How the data were processed

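Per the labels, libraries came from the NEBNext Ultra II RNA kit. The authors deposited raw counts per gene. The submitters' processing notes name STAR 2.4.1d, mm10, DESeq2, edgeR, limma and FastQC. No source used here gives the counting tool, its strand setting or the annotation. Symbols, positions and exon lengths came from GENCODE on mm10.

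Counts were fitted in R 4.3.3 with edgeR 4.0.16: filterByExpr (minimum count 10), TMM scaling, and a robust quasi-likelihood F test with a mean per group over 17 libraries. P values were Benjamini-Hochberg adjusted over 13721 genes, and calls made under 0.05. SE was taken as log2 fold change divided by √F. CPM uses scaled library sizes. A group with 0 counts gives a bound with a floor of 3 counts over the group; with 1 to 3 counts, an exact 95% interval. Both cover counting error only. The lowest chi-square per gene between libraries of the same group was 23.4, so none was counted as a copy of another in its group. The pipeline was tested on simulated data.

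Values in every library are given, in the text or in a figure, for genes called in wild type after CCl4. The same holds for genes called in a contrast with a knockout group against wild type or in the difference of effects. It also holds for the highest gene per length of each role. Of other matrix genes, those with the 5 smallest p in each CCl4 contrast were named, and calls where 10 or fewer. Lrat and Acta2 were added, Lrat by library in the knockout groups only and Acta2 as counts per group. Members and lists were chosen with earlier results of these data known. Alternatives were other scalings, filters, DESeq2 1.42.0, limma 3.58.1 voom, fits of the compared groups, the replicate block, and libraries or mitochondrially encoded genes left out.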

Additional observations from a re-analysis of the deposited data

Results flagged for a closer look

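Of 36 groups of 4 or 5 libraries checked for the 12 genes given by library, 5 passed Dixon's critical value for a library apart from the others, and chance gives about 1 in 20. Nid1 was 6.53 CPM in WT CCl4 replicate 3, against 13.0 to 14.2 CPM in the other libraries of that group. Mmp14 was 21.1 CPM in KO untreated replicate 2, against 16.9 to 17.5 CPM in the others. Col6a1 was 0.0838 CPM in KO untreated replicate 4 and 0 in the others, but this is 1 count, which passes by construction and does not show that the library differs. Col3a1 was 0.867 CPM in WT untreated replicate 5, against 0.0628 to 0.295 CPM in the others, and Ecm1 was 6.07 CPM in that library, against 0.942 to 2.12 CPM. The same library had 30.7% of its counts on mitochondrially encoded genes, and the part of this in the 2 values was not tested.

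Between the genotypes, the CCl4 effect on Col4a1 differed by 2.74 log2 in the knockout over wild type, by the interaction term of the fit. This call was lost in 14 of the 17 fits that left out a library, and limma voom did not make it.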

How the results depend on the processing

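Counts of genes called among the 36 are given, and the filter of each setting decided which of them were tested. CCl4 in the knockout stayed within 1.5 times its 26 under all alternatives run (18 where 5 or more libraries had to reach 1 CPM, 30 of the 36 with no filter, 26 with DESeq2, 25 with limma voom). The 30 with no filter included Des, Loxl1, Pdgfra and Timp1, which the main fit did not test. Over all genes the count was 2610, and 2048, 2677, 2905 and 2030 in those settings, in that order. Each library left out gave 19 to 28, and the 28 included Des and Pdgfra, which the main fit did not test. CCl4 in wild type, 2 genes, became 8 with DESeq2, 10 with unscaled library totals, which moved the median log2 fold change of all genes to 0.38, 1 with the replicate block, and 6 without the 2 libraries with over 30% mitochondrial counts (each library left out gave 1 to 3). Over all genes it went from 117 to 494, 651, 49 and 187 in those settings, in that order. Knockout against wild type after CCl4, 5 genes, became 2 without those 2 libraries (2 to 7), and over all genes 1622 became 555. The untreated comparison, 0 genes, became 1 with DESeq2 (over all genes 128 became 328), and leaving out any library gave 0. The difference of CCl4 effects, 1 gene, became 8 with DESeq2 and 0 with unscaled totals, no filter, limma voom, the replicate block and without those 2 libraries (0 to 6). Over all genes it went from 150 to 783 with DESeq2, and to 28, 33, 2, 3 and 9 in the other settings, in that order. The cause was not tested. No alternative turned a called direction. The labels say that replicate numbers pair no libraries: with the replicate block the counts were 25, 1, 5, 0 and 0. Genes near 0, such as Acta2 and Lox, were limited by depth.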
